A study of Chlorella variabilis with 6 samples.

Results

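The most abundant transcripts of wild-type (WT) Chlorella variabilis NC64A cells were taken as the 100 genes, of the 9625 genes counted, with the highest mean counts per 1000000 (CPM, a gene's count divided by the library total and multiplied by 1000000) over the 3 WT libraries. These 100 genes are called members below. Places by CPM are places by counts, which rise with transcript length as well as with the number of molecules. RNA of WT cells and of LOG OX1 cells was sequenced from 3 biological replicates each at 14 days post inoculation, 1 h before the dark phase of a light and dark cycle. LOG OX1 is 1 transgenic line, of several made, that carries CvarLOG1 under the constitutive 35S promoter of the plasmid pMDC32, and WT carries no transgene. CvarLOG1 encodes LONELY GUY, which releases active cytokinin free bases from cytokinin nucleotides. The comparison addresses which transcripts differ between this overexpressing line and WT. There was no vector control, so the parts of the enzyme, of transgene insertion, of hygromycin selection and of the line itself were not tested separately. The study also reports slower growth of this line at this age of culture, and a different distribution of its cells over the cell cycle. The part of these differences in the values below was not tested. The libraries held between 10180885 and 12546100 counts, with 177 to 192 genes at a count of 0. CvarLOG1 itself (CHLNCDRAFT_28106), whose introduced and native copies were counted together, had a CPM of 20.3, 20.03 and 23.5 in WT and of 38.2, 40.5 and 35.8 in LOG OX1, and was far from being a member in both. In RNA of whole cultures, a change in the number of cells of a kind and a change in the RNA per cell cannot be told apart, and a rise of 1 gene's share lowers the shares of others.

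A green alga growing in light devotes much of its mRNA to the machinery of photosynthesis and of protein synthesis. The ribulose bisphosphate carboxylase small subunit (RBCS) is a part of the enzyme that fixes carbon dioxide, aldolase works in the Calvin cycle and in glycolysis, PsbO stabilizes the manganese cluster of photosystem II where water is split, and translation elongation factors carry the ribosome through each step of peptide synthesis. Which mRNAs stand at the top of a transcriptome also sets how the counts of a library are shared out.

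The study lists primer pairs for quantitative PCR of an aldolase and of the ribulose bisphosphate carboxylase small subunit, which are also the product names of 2 members. The study reported from quantitative PCR that both transcripts were higher in LOG OX1 than in WT. The primers are printed here, 5′ to 3′, as the sequences that the study used for transcripts of these names. No genome was used here, so whether they amplify these members, or another RBCS copy, was not examined.
FBiP aldolase F: tgagcaactcctgtctgttctc
FBiP aldolase R: tgttcagcgcttgtgttgtg
RuBP SS F: tgcacattcgatgctccttg
RuBP SS R: aaaggggcctgagtcagttac

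The members, about 1 gene in 100, held a large part of the counts of every library, and a larger part in LOG OX1 than in WT. Their summed share was 24.0%, 24.5% and 25.3% of the counts in WT replicates 1, 2 and 3, and 27.9%, 27.6% and 27.6% in the LOG OX1 replicates. Every LOG OX1 library lay above every WT library. The means were 24.6% ± 0.620 (SD, n = 3) and 27.7% ± 0.179 (SD, n = 3). The WT values chose the members, so this difference was not tested. The members that took a larger share in LOG OX1 numbered 76 and added 5.86 percentage points, the 24 others changed the sum by -2.74 points, and the net gain was 3.13 points. A single gene carried a large part of the loss, since CHLNCDRAFT_31463 changed by -1.27 points. Without it the other 99 members took 22.9% of the counts in WT and 27.3% in LOG OX1.

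Abundance was steep within the members. The first 10 took 6.53% of the WT counts, places 11 to 50 took 10.4% and places 51 to 100 took 7.68%. The mean CPM in WT ran from 16648 at the first place to 1164 at the last. In LOG OX1 the same 3 groups took 5.04%, 11.9% and 10.7%, so the summed share of the 10 genes highest in WT was smaller and that of the other 90 larger. Of these 10, CHLNCDRAFT_31463 changed by -1.27 percentage points and CHLNCDRAFT_59648 by -0.333, while 5 had a log2 fold change above 0. When each library was ranked by itself, its own 100 highest genes held 24.6% ± 0.551 (SD, n = 3) of the WT counts and 28.9% ± 0.221 (SD, n = 3) of the LOG OX1 counts (exact permutation test over the libraries, two-sided, p = 0.1, the smallest that 3 against 3 allows). The 10 highest genes of each library went the other way, at 6.54% in WT and 6.18% in LOG OX1 (exact permutation p = 0.1), and this direction turned when CHLNCDRAFT_31463 was taken out, to 5.23% and 6.18%. The single highest gene took 1.66% of a WT library and 0.951% of a LOG OX1 library. The number of genes needed to reach 50% of the counts was 649, 638 and 623 in WT and 496, 502 and 505 in LOG OX1.

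**Figure D1:**
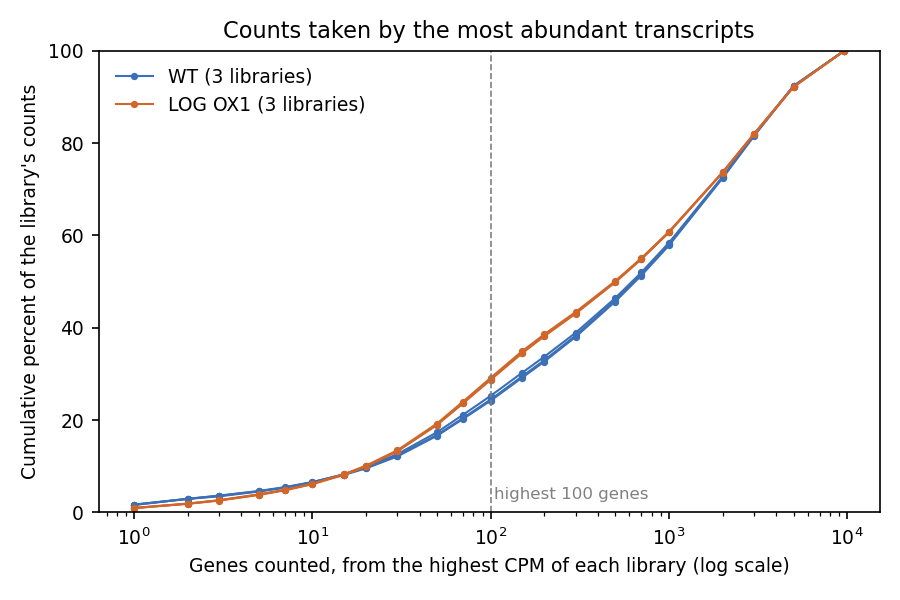
Cumulative percent of a library's counts (vertical axis) against the number of genes counted from the highest CPM downwards (horizontal axis, log scale), 1 line for each of the 3 WT and 3 LOG OX1 libraries. The LOG OX1 lines start below those of WT, at 0.951% against 1.66% for the first gene, and lie above them at 100 genes, at 28.9% against 24.6%.

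CHLNCDRAFT_31463, annotated as the elongation factor EF-3, had the most counts of all genes in WT cells. EF-3 is an ATPase known from fungi, where it helps the ribosome to release spent tRNA during elongation. Its CPM was 16959, 16900 and 16085 in WT and 3940, 3985 and 3905 in LOG OX1, so the groups stood far apart and the replicates close together. The gene fell from place 1 to place 15. It fell by 2.06 on the log2 scale (SE 0.031), or 4.16-fold (edgeR quasi-likelihood test, Benjamini-Hochberg over all genes, adjusted p = 5.1e-18). Among the members only CHLNCDRAFT_143229 fell by more on the log2 scale. The EF-3 gene spans 5.54 kb with introns, and per kb of span EF-3 stood at place 6 in WT and at place 119 in LOG OX1.

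The second gene of WT, CHLNCDRAFT_59648, kept place 2. It had no name in the sources used here. Its CPM was 12324, 12730 and 13293 in WT and 9600, 9233 and 9521 in LOG OX1, without overlap, and its log2 fold change of -0.41 (SE 0.034) passed the p threshold of edgeR's quasi-likelihood test but not the fold change of 1.5 required for a call. Of the 8 genes at places 3 to 10 in WT, 0 were called in edgeR's quasi-likelihood test or by DESeq2 with the fold change of 1.5, although 6 passed the adjusted threshold at any fold change, as did the same number at an unadjusted p under 0.05. Of all genes tested, 14.0% were called higher and 14.6% lower. CHLNCDRAFT_32922 had a CPM of 4826, 5125 and 5348 in WT and of 7252, 7182 and 7059 in LOG OX1, no overlap, a log2 fold change of 0.51 and a move from place 4 to 3. CHLNCDRAFT_139122 had a log2 fold change of 0.39 and moved from place 9 to 7. CHLNCDRAFT_35097 and CHLNCDRAFT_30705 had log2 fold changes of -0.29 and -0.22 and moved from place 5 to 13 and from 10 to 34. A place also depends on the changes of other genes. CHLNCDRAFT_59830 and CHLNCDRAFT_49213, at places 7 and 8 of WT, had overlapping groups and log2 fold changes of 0.07 and 0.04 (adjusted p = 0.098 and 0.35 in edgeR quasi-likelihood test, Benjamini-Hochberg). CHLNCDRAFT_59390 and CHLNCDRAFT_59028 completed the first 10, with log2 fold changes of -0.21 and 0.10.

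**Figure D2:**
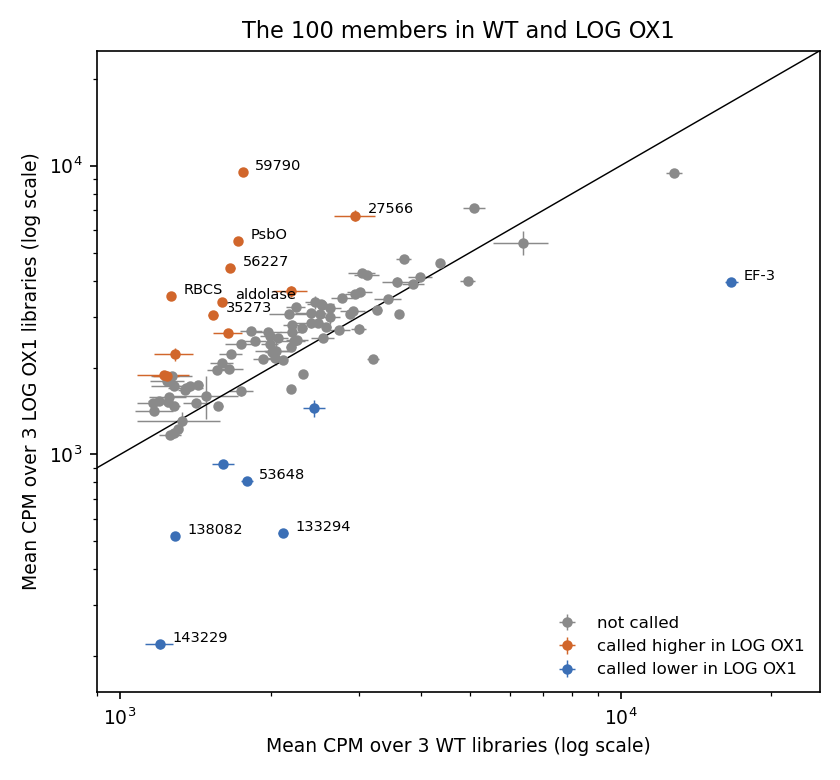
Mean CPM of the 100 members over 3 LOG OX1 libraries (vertical axis, log scale) against the mean over 3 WT libraries (horizontal axis, log scale), with bars of 1 SD and the line of equal CPM; labels are product names or locus tag numbers, for called members that changed at least 2-fold. EF-3 lies far below the line at 16648 and 3944 CPM, and CHLNCDRAFT_59790 far above it at 1758 and 9513 CPM.

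The highest transcript of LOG OX1 was also a member. CHLNCDRAFT_59790 stood at place 62 in WT, with a CPM of 1784, 1746 and 1745, and at place 1 in LOG OX1, with 9630, 9367 and 9542. No WT library came near a LOG OX1 library. It rose by 2.46 on the log2 scale (SE 0.031, edgeR quasi-likelihood test, Benjamini-Hochberg, adjusted p = 1.6e-18), the largest rise of a member, and gained 0.776 percentage points of the counts. It has an entry in the tables of the study but no product name there.

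The 3 members named for photosynthesis and carbon fixation were all called higher, against 14.0% of all genes tested. A member could have a product name only if the study called it changed in these samples, so nothing is read from this count. An oxygen-evolving enhancer protein (CHLNCDRAFT_32868, with the gene name psbO in the tables of the study and called PsbO here, a name that rests on similarity) had a CPM of 1701, 1701 and 1760 in WT and of 5607, 5382 and 5431 in LOG OX1. The groups were far apart, and the gene went from place 65 to place 5 with a log2 fold change of 1.69 (SE 0.034, edgeR quasi-likelihood test, Benjamini-Hochberg, adjusted p = 1.7e-16). RBCS (CHLNCDRAFT_29368) had a CPM of 1242, 1283 and 1262 in WT and of 3543, 3574 and 3524 in LOG OX1. It moved from place 90 to place 20 and rose by 1.51 on the log2 scale (SE 0.034, same test, adjusted p = 5.6e-16 by Benjamini-Hochberg in edgeR). The class I aldolase of fructose bisphosphate (CHLNCDRAFT_37179) had a CPM of 1616, 1605 and 1585 in WT and of 3335, 3461 and 3360 in LOG OX1, again without overlap, and went from place 71 to 23 with a log2 fold change of 1.10 (SE 0.033, edgeR quasi-likelihood test, Benjamini-Hochberg, adjusted p = 2.5e-14).

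A further RBCS gene lay just outside the members. CHLNCDRAFT_59545, at place 103 in WT and 42 in LOG OX1, carries the same product name, had a CPM of 1123, 1186 and 1162 in WT and of 2787, 2756 and 2810 in LOG OX1, and had a log2 fold change of 1.29. Their sequences were not compared here, and if they are near-identical, reads they share may have been split between them or dropped in counting, so both the split and the sum are uncertain. The summed CPM of both genes averaged 2419 in WT, with an SD of 52.1, and 6331 in LOG OX1, with an SD of 1.82 (n = 3 each). The SD of 1.82 is smaller than counting error alone would give, so it is not read as the spread between cultures. Counted as 1 gene, RBCS would stand at place 35 in WT and at place 5 in LOG OX1. CHLNCDRAFT_29368 made up 52.2% of the sum in WT and 56.0% in LOG OX1.

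**Figure D3:**
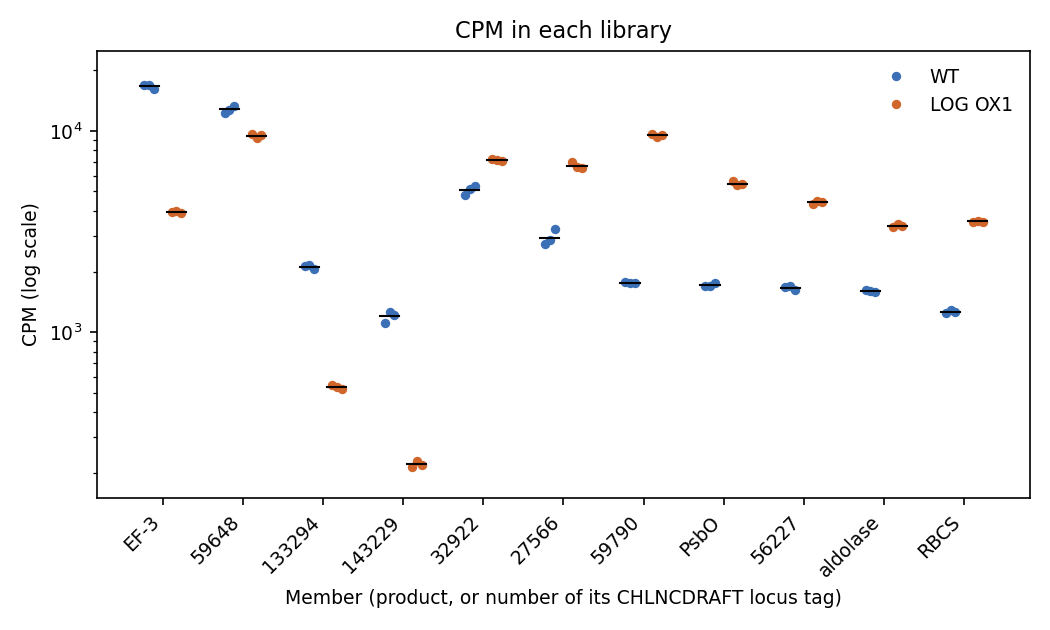
CPM (vertical axis, log scale) of 11 members in each of the 6 libraries, with points for libraries and a black line at the mean of the 3 libraries of a group. EF-3, CHLNCDRAFT_59648, CHLNCDRAFT_133294 and CHLNCDRAFT_143229 are lower in every LOG OX1 library than in any WT library, and the other 7 are higher; the EF-3 means are 16648 and 3944 CPM and the PsbO means 1720 and 5474 CPM.

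Of the other members with a rise, CHLNCDRAFT_27566, annotated as an uncharacterized protein, went from place 19 to place 4, with a CPM of 2733, 2863 and 3258 in WT and of 7043, 6595 and 6523 in LOG OX1 (log2 fold change 1.21, SE 0.054). Its span of 0.585 kb is among the shortest, and per kb of span it stood at place 2 in WT and at place 1 in LOG OX1. CHLNCDRAFT_56227 went from place 67 to 9, with a CPM of 1677, 1689 and 1620 in WT and of 4340, 4494 and 4409 in LOG OX1 (log2 fold change 1.43, SE 0.034). CHLNCDRAFT_35273 went from place 75 to 37 with a log2 fold change of 1.02. The groups did not overlap in these 3 genes, and all were called higher. The 5 called members with the smallest rises were CHLNCDRAFT_51198, CHLNCDRAFT_48537, CHLNCDRAFT_59578, CHLNCDRAFT_34947 and CHLNCDRAFT_32765, with log2 fold changes between 0.61 and 0.81, and none of them had an entry in the tables of the study. When tested against a fold change of 1.5 itself with edgeR's glmTreat, CHLNCDRAFT_51198 and CHLNCDRAFT_48537 were not called.

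Of the 7 members called lower, EF-3 alone stayed among the 100 highest genes of LOG OX1. CHLNCDRAFT_143229 had the largest fall, from a CPM of 1116, 1263 and 1218 to 213, 229 and 219, a log2 fold change of -2.42 (SE 0.051) and a move from place 97 to 711. CHLNCDRAFT_133294 had a CPM of 2139, 2145 and 2059 in WT and of 546, 537 and 519 in LOG OX1 (log2 fold change -1.96, SE 0.037) and moved from place 49 to 224. CHLNCDRAFT_138082 fell from place 85 to 230 with a log2 fold change of -1.28, and CHLNCDRAFT_53648 from place 61 to 163 with -1.13. None of these 4 had overlapping groups or a product name. CHLNCDRAFT_59329 and CHLNCDRAFT_133292 fell less, by 0.78 and 0.73 on the log2 scale. The 6 members called lower other than EF-3 together changed by -0.598 percentage points of the counts, less than EF-3 alone.

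Counted over all members, 12 were called higher in LOG OX1 and 7 lower (adjusted p of at most 0.05 in edgeR's quasi-likelihood test and a fold change of at least 1.5). Against the 14.0% and 14.6% called over the 9101 genes tested, the members' share called higher lay near the background and their share called lower below it. At the same stated thresholds the study, which used DESeq, called 1640 genes, while the fit here called 2602. Of the 19 called members, 7 had no entry in the tables of the study. With factors from the upper quartile in place of the trimmed mean of M-values (TMM), which move the median of all genes to 0.11 on the log2 scale, the counts were 21 and 7. At any fold change, 71 members passed the p threshold as higher, against 35.7% of all genes, and 16 as lower, against 36.1%. Judged on CPM scaled by the TMM factors, groups did not overlap in 85 members, against 74.2% of all genes. The WT libraries that chose the members also enter this fit.

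Small positive changes were common among the members. The median log2 fold change of the members was 0.29, with quartiles of 0.03 and 0.44, while over all genes tested the median was 0.00, with quartiles of -0.34 and 0.34. Of the members, 77 had a log2 fold change above 0. The size of the change without its sign was alike, with a median of 0.34 in both. The 81 members not called, 65 of them above 0, had a median of 0.27. The members called higher gained 2.83 percentage points of the counts and those not called, where they took more, gained 3.03. By place in WT, 5 of the first 10, 32 of the next 40 and 40 of the last 50 members lay above 0. The WT values set the place and also enter the fold change, so no trend by place is read from these counts. When the members were chosen on 1 WT library alone and compared with LOG OX1 in the fit without that library, between 74 and 79 of them lay above 0, between 10 and 16 were called higher and between 7 and 10 lower.

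**Figure D4:**
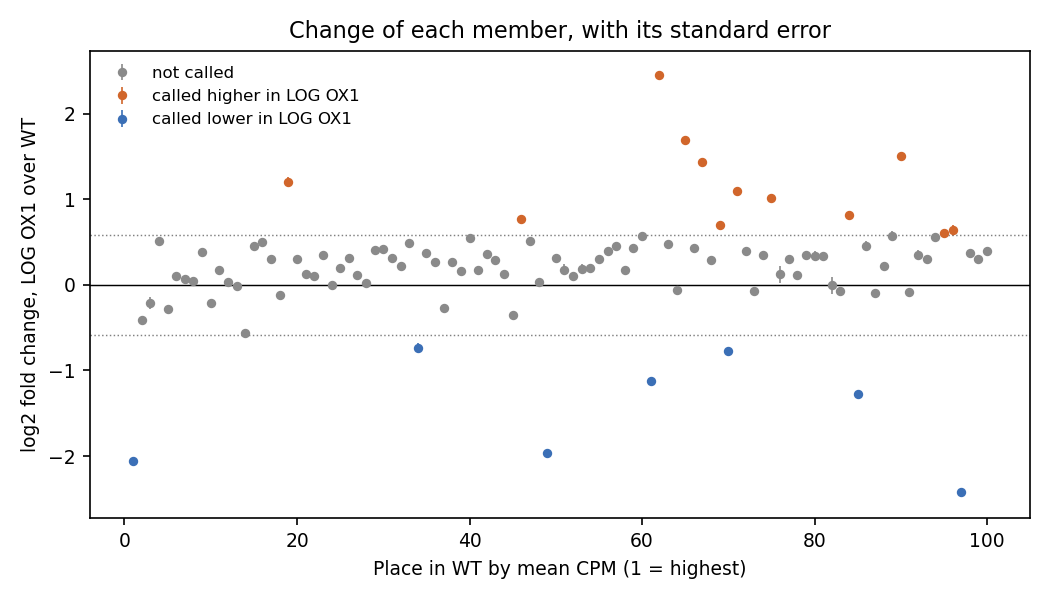
The log2 fold change of LOG OX1 over WT with its standard error (vertical axis) of each member by its place in WT (horizontal axis), with dotted lines at a fold change of 1.5 in either direction. Most points lie above 0, at a median of 0.29, and 10 of the 12 members called higher lie in places 51 to 100. The WT values set the place and also enter the fold change.

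Chosen on LOG OX1 instead, the 100 highest genes held 22 that were called higher, 1 that was called lower, and 88 with a log2 fold change above 0, at a median of 0.35. They took 23.8% of the WT counts and 28.9% of the LOG OX1 counts. The group used for the choice therefore moved the count of members in each direction, while the median lay above 0 for both choices. With both groups weighted alike, by mean CPM over the 6 libraries, 17 of the 100 highest genes were called higher and 3 lower. In the 400 genes that followed, 19.3% were called higher and 23.3% lower, with a median log2 fold change of -0.07.

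Most members kept a place near the top. Of the 100, 87 were also among the 100 highest genes of LOG OX1, 13 left and 13 others entered. Their exact place was kept by 4 members, a place within 10 by 50, and a place within 20 by 73, and 36 members took a higher place and 60 a lower one. The median shift was 10.5 places. Between single libraries, the median shift of a member was 2 to 4 places within WT, 1 to 2 within LOG OX1 and 9 to 12 across the groups. Pairs of WT libraries shared 94 to 97 of their 100 highest genes, pairs of LOG OX1 libraries 95 to 98, and pairs across the groups 83 to 89. Ranked by the mean of each group, WT and LOG OX1 shared 5 of their first 10, 15 of their first 20 and 39 of their first 50 genes. The 4 genes that kept their exact place were CHLNCDRAFT_59648, CHLNCDRAFT_20549, CHLNCDRAFT_14518 and CHLNCDRAFT_29353, at places 2, 66, 74 and 92.

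The 13 members that left were of 2 kinds. The 6 called lower ended at places between 106 and 711. The 7 others were not called and ended at places between 102 and 122. CHLNCDRAFT_59745 and CHLNCDRAFT_27155 left with log2 fold changes of 0.22 and 0.30. In total 8 of the 13 ended within 25 places of the border, and 10 members were in the top 100 of none of the LOG OX1 libraries.

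Of the 13 genes that entered, 10 were called higher, against 14.0% of all genes, but the choice of entrants fixed their direction and nothing is read from this count. A product name was given for 4 of them. Besides the RBCS gene CHLNCDRAFT_59545 they were plastocyanin (CHLNCDRAFT_48299), which carries electrons to photosystem I, PSI-F (CHLNCDRAFT_29874), a subunit of photosystem I, and the light-harvesting protein LHCC10 (CHLNCDRAFT_59584). Plastocyanin had a CPM of 1017, 1029 and 1013 in WT and of 2527, 2493 and 2454 in LOG OX1 and went from place 121 to 54. LHCC10 came from place 415 to 72, with 361, 370 and 366 in WT and 2066, 2061 and 2037 in LOG OX1 (log2 fold change 2.51), and its span overlaps that of a neighbouring gene. The groups were apart in both. CHLNCDRAFT_59709, which had no product name, went from place 115 to 59 with a log2 fold change of 1.21. An unnamed gene, CHLNCDRAFT_137219, came from place 8683 in WT, at 3.62 CPM ± 0.528 (SD, n = 3), to place 88, at 1596 CPM ± 27.4 (SD, n = 3), which made it the entrant with the largest change.

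Just inside the choice stood CHLNCDRAFT_48854, CHLNCDRAFT_27155 and CHLNCDRAFT_48682, with mean CPM of 1195, 1171 and 1164 in WT and of 1528, 1419 and 1509 in LOG OX1. Just outside stood CHLNCDRAFT_32733, CHLNCDRAFT_57453 and CHLNCDRAFT_59545, with 1162, 1162 and 1157 in WT. The step across the border was smaller than the SD of the replicates. In LOG OX1 the 3 genes just outside were at 3200, 6.08 and 2784 CPM, and CHLNCDRAFT_57453 thus went from place 102 to 8526.

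The members varied little between replicates, with a lower median spread in LOG OX1 than in WT. The coefficient of variation (CV, SD over mean) of CPM over the WT libraries, which took part in the choice, had a median of 4.91% and a range of 0.455% to 18.8%, and over the LOG OX1 libraries a median of 1.99% and a range of 0.247% to 16.9%. The lowest count of a member was 11212 in WT and 2217 in any library. At the mean count of each member, counting error alone would give a median CV of 0.644% in WT and 0.598% in LOG OX1. The highest such values were 0.856% and 2.03%. Over all genes tested, the median CV was 5.07% in WT and 4.90% in LOG OX1. A CV under 5% was found for 52 members in WT and 91 in LOG OX1, and a CV above 10% for 5 and 2 members. The spread in WT had a direction, since 72 members were highest in WT replicate 3 and 62 lowest in WT replicate 1. With WT replicate 3 left out, 16 members were called higher and 7 lower.

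The steadiest members in WT were CHLNCDRAFT_30705, with a CPM of 3601, 3610 and 3633, CHLNCDRAFT_138082, with 1286, 1291 and 1279, and CHLNCDRAFT_58001, with 2193, 2174 and 2206. All 3 were lower in each LOG OX1 library than in any WT library, with log2 fold changes of -0.22, -1.28 and -0.35, and CHLNCDRAFT_138082 alone was called. The least steady were CHLNCDRAFT_135401, with 1044, 1449 and 1498, CHLNCDRAFT_37234, with 1605, 1636 and 1222, and CHLNCDRAFT_59390, with 6814, 6859 and 5449. In LOG OX1, CHLNCDRAFT_37234 had 1304, 1644 and 1836, and it was the 1 member with a CV above 10% in both groups. In these 3 genes the groups overlapped, none was called, and the sign of the change of CHLNCDRAFT_135401 (log2 fold change -0.01) turned in several alternatives.

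The spans of the members, from start to end of the gene with introns, had a median of 2.19 kb and ran from 0.482 to 12.9 kb, against a median of 2.28 kb over all genes. By CPM per kb of span, 75 of the members were still among the 100 highest genes of WT. The change between the groups moved with the span. Of the 50 members with a span under 2.19 kb, 45 had a log2 fold change above 0, at a median of 0.38, and of the 50 others 32, at a median of 0.12. Of the 12 members over 5 kb, 3 lay above 0, at a median of -0.07, and 0 were called higher in edgeR's quasi-likelihood test and 3 lower. DESeq2 gave the same counts, and at an unadjusted p under 0.05 in edgeR 2 lay higher and 5 lower. Of the 1224 genes tested over 5 kb with at least 100 counts in every library, 10.05% were called higher and 14.4% lower, at a median of -0.05, so 12 members are too few to read a count of 0 against this share. Some pairs of replicates also differed by span. The log2 ratio of WT replicate 3 to WT replicate 1 had a median of 0.14 in the shorter members, 0.04 in the longer ones and -0.08 in those over 5 kb. That of WT replicate 2 to WT replicate 1 was nearly flat, at 0.04, 0.01 and 0.01, and that of LOG OX1 replicate 3 to LOG OX1 replicate 1 ran the other way, at -0.04, -0.01 and 0.07. Over all genes tested with at least 100 counts in every library, the median log2 fold change was 0.02 in those under the same span and -0.04 in the others. The part of transcript length in these values was not tested. This split was chosen after seeing the data.

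**Figure D5:**
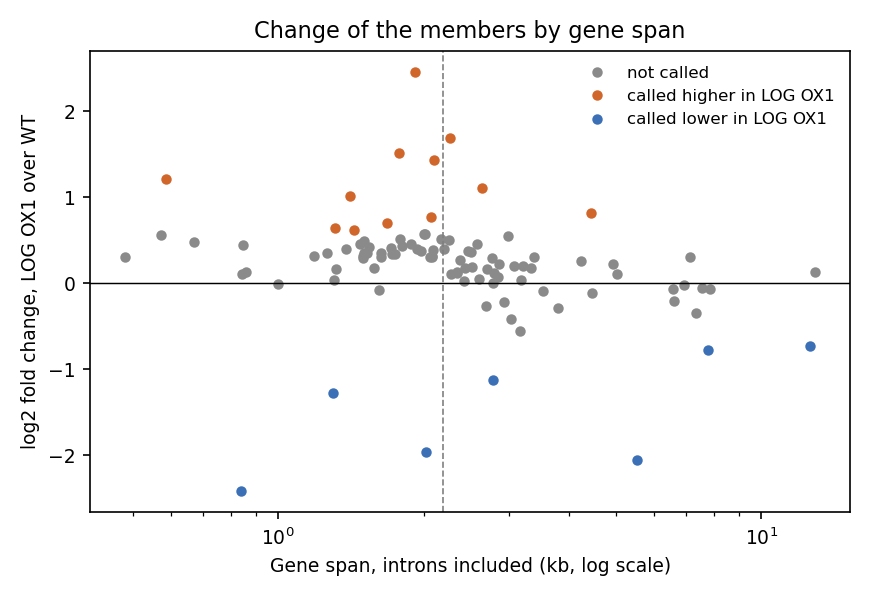
The log2 fold change of LOG OX1 over WT (vertical axis) of each member by the span of its gene in kb (horizontal axis, log scale), with a dashed line at the median span of 2.19 kb. Left of the line 45 of 50 members lie above 0, and right of it 32 of 50.

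Few members could be named. The product names came from tables of the study, which assigned them by similarity to reviewed algal proteins and which hold only genes it called changed, so 12 members had an entry, 4 of these with a product name (EF-3, the oxygen-evolving enhancer protein, aldolase and RBCS), and the 88 others had none. One more member was known by its symbol in the files, RACK1, a scaffold protein of the small ribosomal subunit. RACK1 had a CPM of 2026, 1847 and 1925 in WT and of 2125, 2154 and 2143 in LOG OX1, without overlap, and a log2 fold change of 0.17, and went from place 58 to 68. Of the 12 functional lists drawn from those tables, 4 held a member and 8 held none. The photosynthesis list had 1 member of its 7 genes, of which 6 were called higher and 1 lower. The carbon fixation list had 2 members of its 11 genes, of which 9 were called higher and 2 lower. The translation factor list had EF-3 of its 3 genes, 1 called higher and 2 lower, and the list of glycolysis and central carbon had aldolase and RBCS of its 16 genes, 9 called higher and 7 lower. Since these lists hold genes picked on these samples, their counts are not independent evidence of a direction, and the ribosome list, with 0 members of 8 genes, says nothing of ribosomal protein genes that had no entry.

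In the gene order of the reference annotation, 1 pair of members, CHLNCDRAFT_57416 and CHLNCDRAFT_143795, were neighbours, with log2 fold changes of -0.02 and 0.03. The span of 1 member, CHLNCDRAFT_58001, overlapped that of a neighbouring gene, which is 1.00% of the members against 2.45% of all genes.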

How the data were processed

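Paired-end libraries were made with a directional kit from 3 cultures of WT and 3 of LOG OX1. The authors trimmed the reads with Trim Galore, used HISAT2 for alignment to the genome of NC64A and obtained gene counts with HTSeq, and deposited these raw counts for 9625 genes, without normalization. The submitters' processing notes also name FastQC, and tool versions, the strand setting of the counting and the annotation release are not given in the sources used here, so overlapping genes, antisense genes and near-identical copies have uncertain counts. All 9625 identifiers matched the RefSeq gene table of Chlorella variabilis, which was used for symbols, spans and gene order. Product names came from the study's supplementary tables. Samples were grouped by their titles. Total counts ran from 10743741 to 12546100 in WT and from 10180885 to 12444029 in LOG OX1, and replicates differed by more than counting noise (chi-squared per degree of freedom 2.36 to 7.06 within groups). P-values measure the spread between these cultures.

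CPM was computed on the library total, and the overlap of groups was judged on CPM scaled by the TMM factors. LOG OX1 was compared with WT by edgeR 4.0.16 in R 4.3.3, with filterByExpr (minimum count 10, 9101 genes kept, all 100 members among them), TMM factors and the quasi-likelihood F test on group alone. Adjustment of p-values was by Benjamini-Hochberg over the 9101 genes. The prior count of log2 fold changes was 0.125, and the SE was taken as the absolute log2 fold change over the square root of F. Alternatives were DESeq2 1.42.0, glmTreat, other factors and filters, the replicate block, other choices of members, and each library left out. On simulated data for this comparison, edgeR's test recovered 200 of 200 changed genes among 9095. The glmTreat test recovered 192 of these 200, and DESeq2 recovered 199 of 200 among 9592 genes. The simulation held far fewer changed genes than the 2602 called in the data. These counts therefore do not show how well the factors work under so many changes, nor the recovery of changes close to the fold threshold. Permutation tests used scipy 1.17.1, and Python 3.11.15, numpy 2.4.6, pandas 2.3.3 and matplotlib 3.10.9 were used elsewhere.

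The members and lists were chosen with earlier results of these data known. Genes named are the 10 highest in WT, those with a product name, the 5 called members with the largest rise and the 5 with the largest fall, the 3 on either side of place 100, the 3 with the largest and the 3 with the smallest CV in WT, the 5 highest entrants of LOG OX1 and CvarLOG1. Others were named after their values were seen, as were the alternatives said to be so: the removal of CHLNCDRAFT_31463, the choice on 1 WT library and the split by span.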

Additional observations from a re-analysis of the deposited data

How the results depend on the processing

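Most results did not depend on the settings tried. The members kept in the LOG OX1 top 100 numbered 85 to 88 with 1 library left out, and a share of 77.0% to 87.0% was kept under the other choices of members. The 19 calls were the same members under DESeq2, RLE factors, the library size alone, no filter, a filter of 10 counts in every library and with the replicate number as a block, which gave 12 higher and 7 lower. Libraries of the same replicate number had correlations of deviations between -0.157 and 0.00, and those of different numbers between -0.128 and 0.134. No pairing by number was seen, but so few libraries cannot settle whether samples shared a batch. Upper-quartile factors gave 21 higher, no fold threshold 71 higher and 16 lower, a fold change of at least 2 gave 7 higher, and the 100 highest genes of LOG OX1 gave 22 higher and 1 lower. The glmTreat test against a fold change of 1.5 kept 17 of the 19 calls, at 10 higher and 7 lower. Leaving out 1 library gave 10 to 16 higher and 7 lower. The share of counts in the members was 16.9% in WT and 17.0% in LOG OX1 for the highest 50 genes, 33.1% and 36.0% for the highest 200, and 22.3% and 25.1% for genes chosen per kb of span. Chosen without 1 WT library, it was 24.6% over all 3 WT libraries in each case and 27.3% to 27.9% in LOG OX1. In the WT library left out of the choice it was 24.0%, 24.4% and 25.1% for replicates 1, 2 and 3. The difference in the share of the 100 highest genes of each library was 4.26 percentage points, 4.04 to 4.56 with 1 library left out, and -0.365 for the 10 highest. Among the 33 genes followed singly, 456 of 462 alternative values kept their direction and call. CHLNCDRAFT_32922 was called under upper-quartile factors (log2 fold change 0.62). CHLNCDRAFT_135401 had a log2 fold change of 0.11 under upper-quartile factors, 0.011 with the replicate block, 0.062 without WT replicate 2, 0.092 without WT replicate 3 and 0.053 without LOG OX1 replicate 3, and the cause was not tested. Depth did not limit the members, whose lowest count was 2217, while 3 libraries per group, 1 transgenic line and spans in place of transcript lengths did.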

Other observations

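Of the 8 functional lists with no member, the lipid list came nearest, with CHLNCDRAFT_59740 at place 104 in WT. The highest gene of the ubiquitin and proteasome list, CHLNCDRAFT_137543, stood at place 223, that of the ribosome list, CHLNCDRAFT_135382, at 270, that of the transporters, CHLNCDRAFT_36096, at 284, and that of the chaperones, CHLNCDRAFT_137436, at 341. Tetrapyrrole synthesis began at place 490, the cytoskeleton at 677 and ATP synthesis and respiration at 1012. These lists hold only genes that the study called changed, so other genes of the same function can stand higher. In places 101 to 3000 by mean CPM over the 6 libraries, calls in LOG OX1 ran more often downwards than upwards. In places 101 to 500, 19.3% were called higher and 23.3% lower. The shares were 11.8% and 22.6% in places 501 to 1000, and 8.80% and 18.4% in places 1001 to 3000. In the 6101 genes below these, 15.5% were higher and 12.3% lower.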
